A study of Homo sapiens with 9 samples.

Results

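The genes described here are 36 targets of p53 and regulators of apoptosis, listed by name. A gene counted as measured when the chip held a probe set annotated with its symbol and no other. That held for 33 of the 36 genes, on 74 probe sets, out of 11963 genes measured in all. BTG2, FDXR and BBC3 were not analysed here, since BTG2 and FDXR matched no such probe set and the probe set of BBC3 carried several symbols. Where a gene had several probe sets, the one with the highest mean over the 9 arrays stood for it.

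Messenger RNA was measured on Affymetrix arrays in U251, an established human glioma line. There were 3 groups of 3 cultures. The first was transfected with an siRNA against WT1 at 100 nM, the next with a scrambled, non-targeting siRNA at 100 nM, and the last received only Oligofectamine, the lipid reagent that carries siRNA into cells, which the other groups received too. The cultures were wells plated in triplicate, and those of each group carry the replicate numbers 1, 2 and 3. All 9 cultures come from the same line, and the labels do not give the time from transfection to harvest.

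p53 is a transcription factor that is held low by MDM2, a ubiquitin ligase which is itself a p53 target, and that accumulates after DNA damage or other stress. Its targets stop the cell cycle, repair DNA, adjust metabolism, feed back on p53 or start apoptosis. Apoptosis runs from death receptors at the cell surface or from mitochondria, where BCL2 family proteins control the release of cytochrome c and SMAC, and both routes end in caspases, which the inhibitor of apoptosis proteins restrain.

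Values are log2 expression after RMA, a method that corrects background and normalises between arrays. Differences are log2 differences fitted within replicate numbers with limma, with the standard error (SE), the 95% confidence interval and a p adjusted across every probe set tested, and a gene passed at an adjusted p under 0.05. The values of an array series give no order between genes, because probes differ in brightness. In RNA from whole cultures, fewer cells of one kind and less RNA per cell cannot be told apart. Array medians lay between 6.45 and 6.53. Of the 8 markers of glioma and astrocytes, VIM, CD44 and FN1 were brighter than at least 95.3% of probe sets on every array, GFAP, the astrocyte filament, ranged from 5.36 to 9.26, and S100B was dim, brighter than 12.8% to 36.5% of probe sets. Among these 8 markers, SLC1A3, a glutamate transporter of astrocytes, fell by 0.70 between the siRNAs (adjusted p = 0.000859) and rose by 0.49 with scrambled siRNA against reagent (adjusted p = 0.00641), and SOX2, a factor of neural stem cells, rose by 0.76 between the siRNAs (adjusted p = 0.00282). The other 6 did not pass, and the summed log2 level of the 8 was 73.0 to 77.0 with the WT1 siRNA, 72.8 to 76.5 with scrambled siRNA and 74.1 to 77.8 with reagent. The 14 measured markers of leukocytes, endothelium, epithelium, neurons, oligodendrocytes and podocytes were brighter than 7.29% to 53.3% of probe sets, from EPCAM at the dim end to SNAP25, with KRT5, VWF and PECAM1 between 34.4% and 47.7%. None of the 14 passed, and their summed level was 71.3 to 72.9, 71.0 to 72.6 and 70.6 to 72.8 in the same groups. The part of these markers in the members' differences was not tested.

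The targeted gene checked the labels. WT1 read 4.76, 5.09 and 4.82 in cultures 1, 2 and 3 with the WT1 siRNA, 5.59, 5.89 and 5.41 with scrambled siRNA and 6.05, 6.58 and 5.89 with reagent alone. The 3 groups did not overlap, although scrambled culture 2 and reagent culture 3 lay at the same level after rounding. WT1 fell to 60.0% of the scrambled level (adjusted p = 0.00336) and to 41.0% of the reagent level (adjusted p = 0.000619), and it also fell to 68.4% of the reagent level with scrambled siRNA (adjusted p = 0.0164). The WT1 signal was low, brighter than 18.4% to 51.8% of probe sets. Its probe set was among the dimmest 40%, which were left out in an alternative fit. A second, dimmer WT1 probe set differed by −0.18 (adjusted p = 0.42), −0.15 (0.516) and 0.03 (0.959) in the 3 comparisons and did not pass. With the mean of both probe sets the differences were −0.46 (adjusted p = 0.0207), −0.72 (0.00619) and −0.26 (0.193). Both falls with the WT1 siRNA were lost without all arrays of number 2 (adjusted p = 0.0795 and 0.0762) and without the block (0.672 and 0.394). The fall with scrambled siRNA was lost without the block (1), with the number as a random effect (0.054), without number 1 (0.0743) or number 2 (0.305), and without scrambled replicate 1, 2 or 3 or reagent replicate 1 or 2 (0.0607 to 0.13). The comparison between the control groups is therefore given beside each call on a member or another pathway gene.

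The comparison of WT1 siRNA with scrambled siRNA asks which genes differ alongside the partial fall of WT1. Of the 33 measured genes, RPS27L rose and TIGAR and DIABLO fell. That is 3 of 33, or 9.09%, where 3.7% of all genes passed, 1.39% upward and 2.32% downward. Against reagent alone FAS fell with the WT1 siRNA, which is 1 of 33, or 3.03%, beside 1.4% of all genes (0.376% upward and 1.02% downward). With scrambled siRNA against reagent, RPS27L and CCNG1 fell, which is 2 of 33, or 6.06%, beside 1.21% of all genes (0.644% upward and 0.568% downward). No measured member passed with the WT1 siRNA against both control groups. In some comparison 5 of 33 genes passed, or 15.2%, beside 4.77% of all genes. The comparisons share arrays, so their counts are not separate evidence.

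Most of the list, like most genes, lay near zero in each comparison. With the WT1 siRNA against scrambled siRNA the median log2 difference of the 33 genes was −0.02, with 12 above 0, and the median over all genes was −0.002. Against reagent the median was 0.01 with the WT1 siRNA and 0.03 with scrambled siRNA, beside 0.01 over all genes in either case. In each comparison 27 of the 33 genes differed by less than 0.2, beside 10448, 10613 and 10883 of all 11963 genes. With the sign left aside, the median difference was 0.108, 0.0836 and 0.0773 for the 33 genes. Over all genes it was 0.0725, 0.0741 and 0.0656, so the list lay no nearer to zero than genes in general. At an unadjusted p under 0.05, limma gave 5, 9 and 6 of the 33 genes in the 3 comparisons, or 15.2%, 27.3% and 18.2%, beside 17.7%, 15.9% and 13.1% of all genes. Without the replicate number in the model, limma called 0 of the 33 genes in each comparison, with 3, 1 and 2 at an unadjusted p under 0.05. Of all 11963 genes, 0.0334%, 0% and 0.00836% were then called, and 4.12%, 3.11% and 2.44% had an unadjusted p under 0.05. The difference had the same sign within 3 of 3 numbers for 15, 12 and 16 of the 33 genes, or 45.5%, 36.4% and 48.5%, beside 37.2%, 34.9% and 39.7% of all genes. Every call below rests on comparing cultures of the same number.

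**Figure D1:**
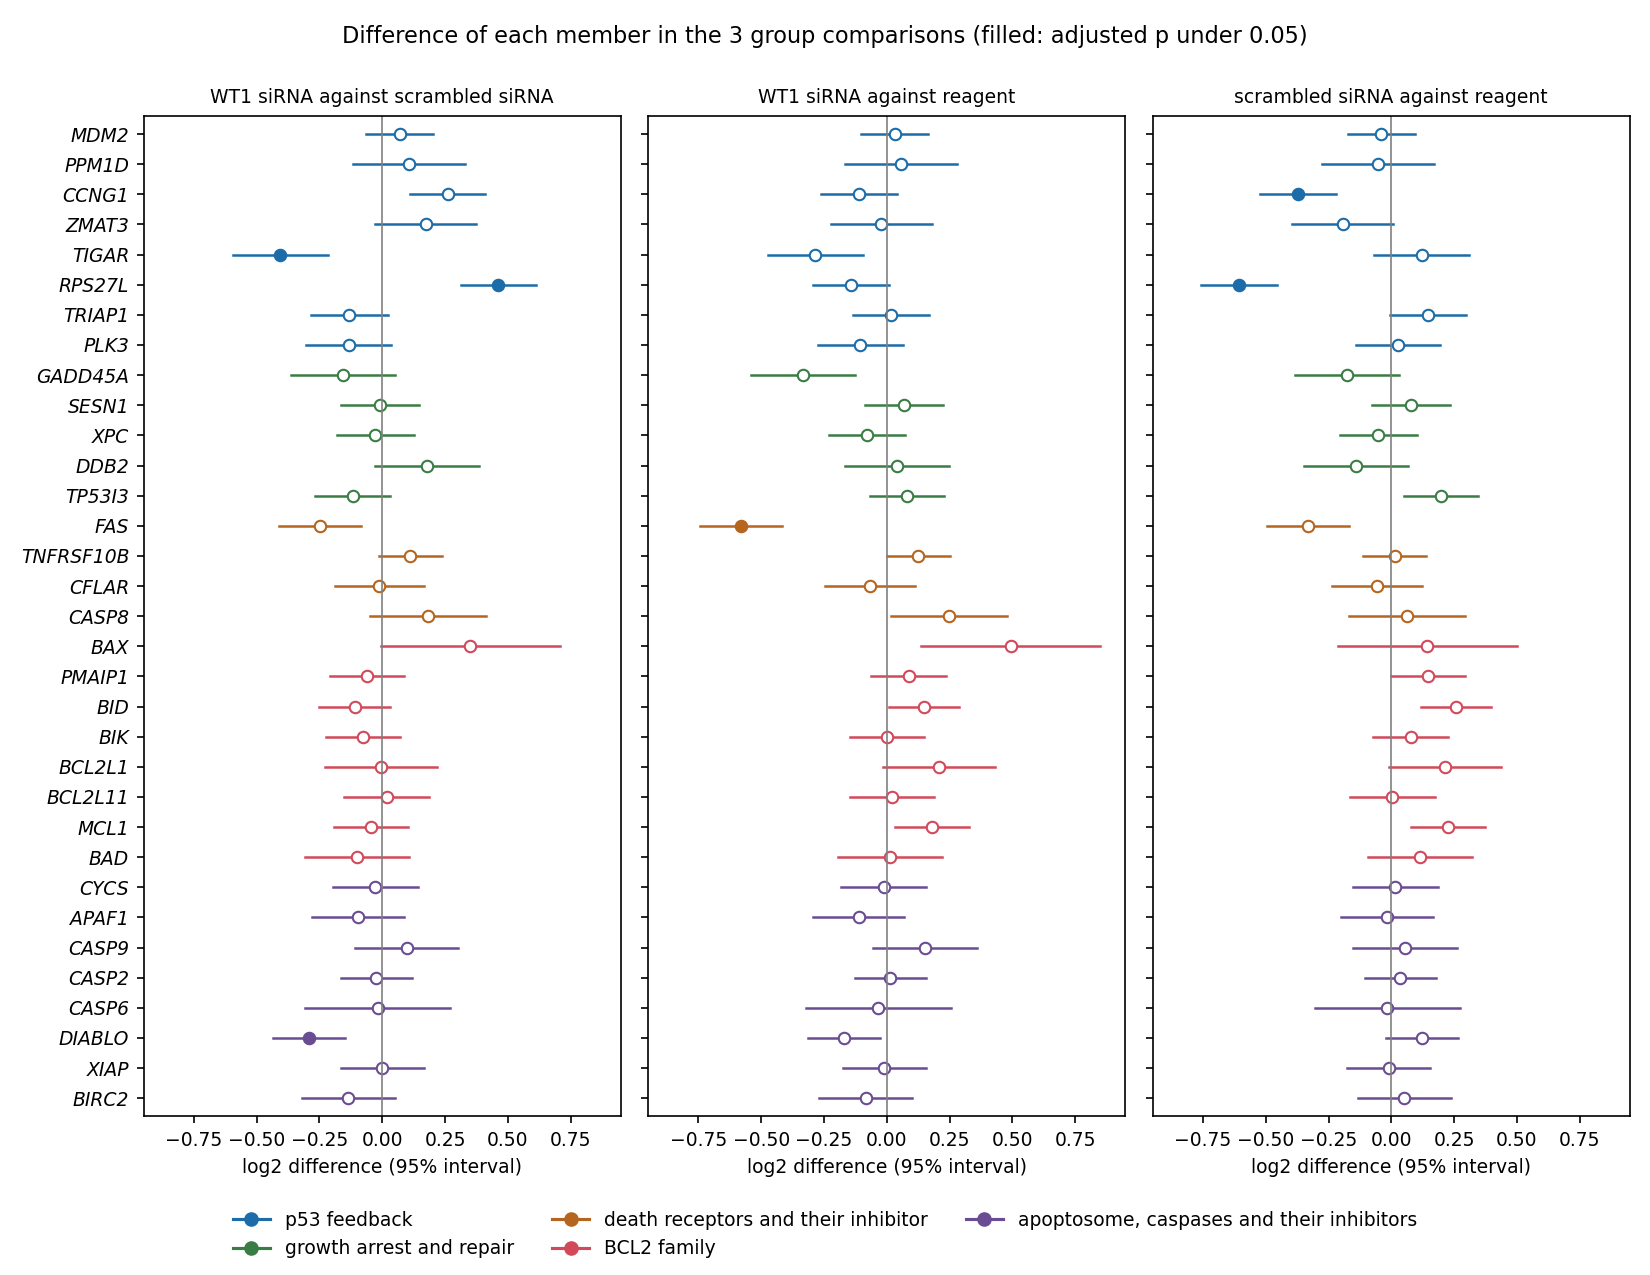
Log2 difference of each measured gene in the 3 comparisons, grouped by role, with the 95% confidence interval of the fit within replicate numbers and calls marked. Most points lie within 0.2 of zero, and the called genes are RPS27L, TIGAR, DIABLO, CCNG1 and FAS.

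Of the 8 genes that feed back on p53 or act beside it, RPS27L, CCNG1 and TIGAR passed in some comparison. RPS27L, a paralogue of a ribosomal protein of the small subunit and a p53 target that binds MDM2, gave the lowest adjusted p of the list. It read 11.56, 11.72 and 11.84 with the WT1 siRNA, 11.10, 11.24 and 11.39 with scrambled siRNA and 11.81, 11.89 and 11.84 with reagent alone. The scrambled cultures were the low ones, below every other culture, and the WT1 siRNA and reagent groups overlapped.

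RPS27L was 0.46 higher with the WT1 siRNA than with scrambled siRNA (SE 0.0669, interval 0.31 to 0.61, 1.38-fold, adjusted p = 0.00829), and the difference within numbers 1, 2 and 3 was 0.46, 0.48 and 0.45. With scrambled siRNA it fell to 65.7% of the reagent level (−0.61, interval −0.76 to −0.46, adjusted p = 0.00508), by 0.71, 0.65 and 0.45 within the numbers. Between the WT1 siRNA and reagent the difference was −0.14 (adjusted p = 0.359). Thus the call against scrambled siRNA came with a lower level in the scrambled cultures than with reagent, and the WT1 siRNA did not differ from reagent beyond the threshold. RPS27, the ribosomal protein gene that RPS27L resembles, differed by −0.08, −0.01 and 0.08 in the 3 comparisons and did not pass, and how far the probes tell the transcripts apart was not tested. The call against scrambled siRNA was lost without scrambled replicate 1 (adjusted p = 0.0531), scrambled replicate 2 (0.0786) or all arrays of number 2 (0.198), and without the block (0.447). The call of scrambled siRNA against reagent was lost without scrambled replicate 2 (0.0689), reagent replicate 2 (0.0695) or all arrays of number 2 (0.25), and without the block (0.429).

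CCNG1 encodes cyclin G1, a p53 target that brings a phosphatase to MDM2. It read 10.03, 10.13 and 10.49 with the WT1 siRNA, 9.64, 9.96 and 10.26 with scrambled siRNA and 10.14, 10.31 and 10.52 with reagent. Within each number the scrambled culture was the lowest and the reagent culture the highest, although the groups overlapped across numbers. CCNG1 fell with scrambled siRNA against reagent by 0.37 (SE 0.0665, interval −0.52 to −0.22, 1.29-fold, adjusted p = 0.0346), by 0.50, 0.35 and 0.26 within the numbers. It was 0.26 higher with the WT1 siRNA than with scrambled siRNA, which did not pass (adjusted p = 0.0708), and differed by −0.11 between the WT1 siRNA and reagent (adjusted p = 0.482). Of 12 settings that left out an array or a number, the call against reagent held only without WT1 siRNA replicate 1 or WT1 siRNA replicate 3, and it was lost without the block (adjusted p = 1) and with the number as a random effect (0.124).

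The promoters of RPS27L and CCNG1 are shown because these are the members that passed with scrambled siRNA against reagent. They are the 250 bases before the start of transcription on the gene's strand, from RefSeq on GRCh38.p14, at chr15:63157478-63157727 on the minus strand and chr5:163437321-163437570 on the plus strand. The RefSeq table holds 2 start sites for CCNG1, and the window shown is that of the more upstream one. Capitals mark a p53 half-site, the unit that p53 binds as a pair in its response elements.
RPS27L: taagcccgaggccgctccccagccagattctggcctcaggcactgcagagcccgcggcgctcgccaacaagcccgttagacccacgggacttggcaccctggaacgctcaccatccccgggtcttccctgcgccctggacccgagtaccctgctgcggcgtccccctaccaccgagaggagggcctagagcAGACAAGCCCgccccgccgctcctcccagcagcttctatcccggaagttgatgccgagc
CCNG1: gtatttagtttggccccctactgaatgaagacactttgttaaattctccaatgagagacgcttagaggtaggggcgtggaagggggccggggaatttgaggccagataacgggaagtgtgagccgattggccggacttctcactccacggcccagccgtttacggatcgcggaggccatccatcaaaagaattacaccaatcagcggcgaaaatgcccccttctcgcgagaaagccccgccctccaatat
RPS27L held 1 half-site match, AGACAAGCCC, from 59 to 50 bases before its start, and CCNG1 held none in this window.

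TIGAR encodes a phosphatase that lowers fructose-2,6-bisphosphate and so slows glycolysis. It read 6.89, 7.49 and 7.12 with the WT1 siRNA, 7.47, 7.78 and 7.46 with scrambled siRNA and 7.24, 7.57 and 7.55 with reagent. The WT1 siRNA culture was the lowest of its number in 3 of 3 numbers, but the groups overlapped, since culture 2 was the highest in every group.

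TIGAR fell by 0.41 with the WT1 siRNA against scrambled siRNA (SE 0.0843, interval −0.60 to −0.22, 1.33-fold, adjusted p = 0.0344), by 0.59, 0.29 and 0.34 within the numbers. Against reagent the difference was −0.29 (adjusted p = 0.146), and scrambled siRNA differed from reagent by 0.12 (adjusted p = 0.656). The call held in 2 of 12 settings that left out an array or a number, those without reagent replicate 1 or reagent replicate 3. It was also lost without the block (adjusted p = 1), with the number as a random effect (0.0707) and when only the groups compared were fitted (0.0514).

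The other feedback genes did not pass. MDM2 was dim on every array, between 4.76 and 4.96 and brighter than only 19.7% to 23.0% of probe sets, and was the only measured member below 25% on all arrays. It read 4.92, 4.93 and 4.85 with the WT1 siRNA, 4.84, 4.85 and 4.81 with scrambled siRNA and 4.96, 4.89 and 4.76 with reagent. The WT1 siRNA cultures lay just above the scrambled ones and within the range of the reagent ones, with differences of 0.07, 0.03 and −0.04 in the 3 comparisons. The interval of the difference between the siRNAs ran from −0.06 to 0.20, and none of its 5 probe sets passed.

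TRIAP1, a small mitochondrial protein that restrains apoptosis, read 8.92, 9.18 and 9.16 with the WT1 siRNA, 9.19, 9.32 and 9.15 with scrambled siRNA and 9.03, 9.15 and 9.03 with reagent. The scrambled cultures were above the reagent culture of their number by 0.15 on average (adjusted p = 0.435). PPM1D, the WIP1 phosphatase that switches off p53 signalling, differed by 0.11 between the siRNAs (adjusted p = 0.68). ZMAT3, an RNA-binding zinc finger protein, was 0.17 higher with the WT1 siRNA than with scrambled siRNA (adjusted p = 0.388) and 0.19 lower with scrambled siRNA than with reagent (adjusted p = 0.435). PLK3, a stress-activated kinase, differed by −0.13 between the siRNAs (adjusted p = 0.436).

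**Figure D2:**
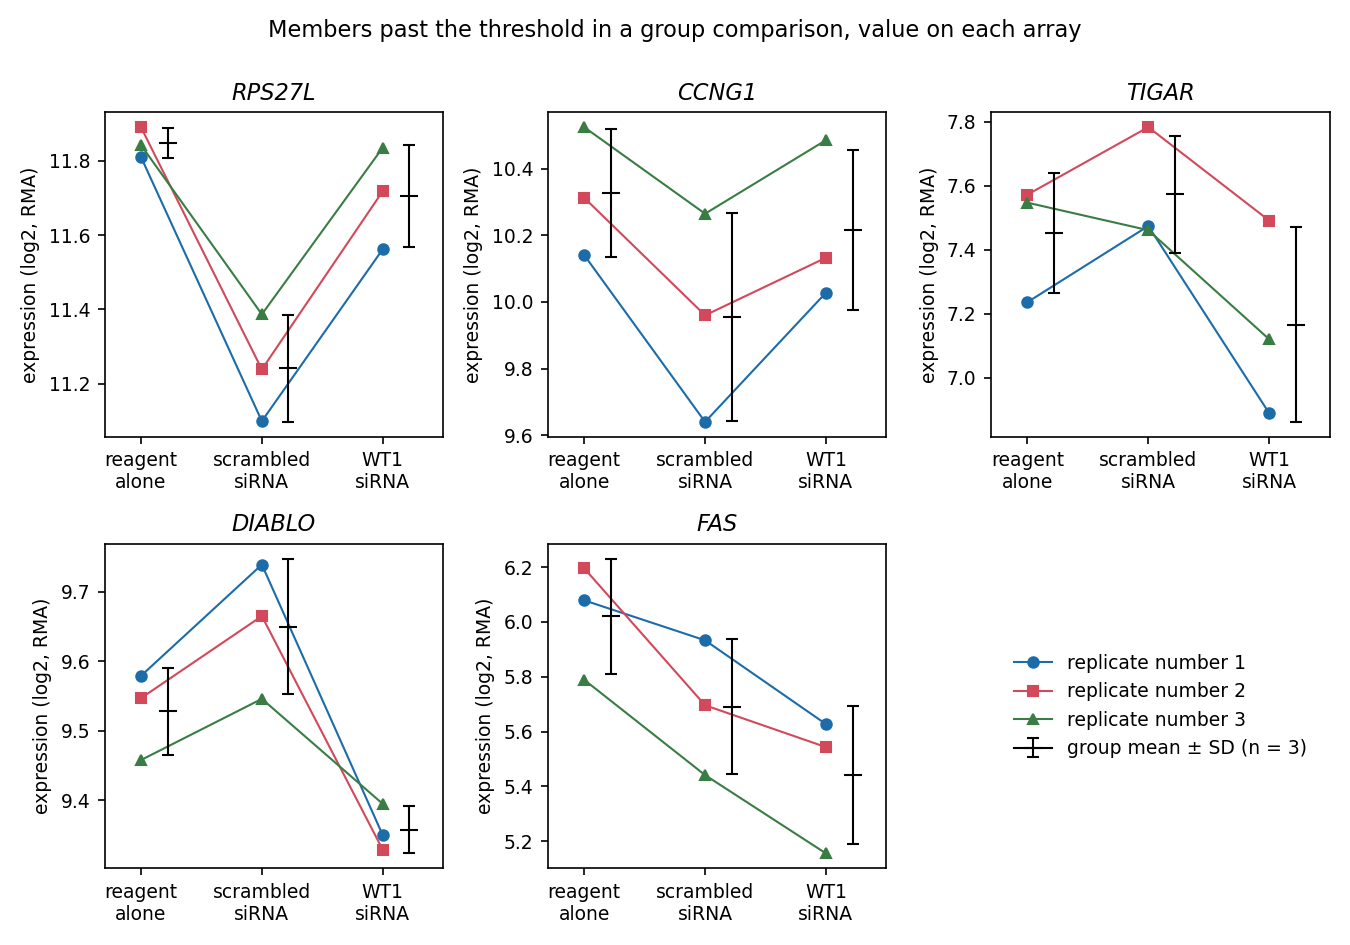
Log2 expression of the genes that passed in some comparison, by group, with a point for each array, lines joining arrays of the same replicate number, and the group mean ± SD (n = 3). Every scrambled culture of RPS27L and every WT1 siRNA culture of DIABLO lies below all cultures of the other groups, while for FAS and TIGAR the WT1 siRNA culture is the lowest within each number only.

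The growth arrest and repair genes gave no call in limma, with 5 of 7 listed genes measured. Of these 5, only GADD45A had an unadjusted p under 0.05 with the WT1 siRNA against reagent, beside 15.9% of all genes. Only TP53I3 had one with scrambled siRNA against reagent, beside 13.1%. GADD45A, a stress protein that slows the cell cycle and takes part in repair, read 9.35, 10.02 and 9.32 with the WT1 siRNA, 9.68, 9.86 and 9.62 with scrambled siRNA and 9.83, 10.13 and 9.73 with reagent. The reagent culture was the highest in each number, and the groups overlapped because culture 2 with the WT1 siRNA was above most others. GADD45A differed by −0.33 between the WT1 siRNA and reagent (adjusted p = 0.125), by −0.48, −0.11 and −0.41 within the numbers, and by −0.16 between the siRNAs (adjusted p = 0.461).

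TP53I3, a quinone oxidoreductase linked to reactive oxygen, read 7.46, 7.18 and 7.55 with the WT1 siRNA, 7.60, 7.38 and 7.56 with scrambled siRNA and 7.37, 7.24 and 7.33 with reagent. Every scrambled culture lay above every reagent culture, by 0.20 on average, which did not pass (adjusted p = 0.245). The damage sensor of nucleotide excision repair XPC differed by −0.03, −0.08 and −0.05 in the 3 comparisons. DDB2, which recognises ultraviolet damage, differed by 0.18 between the siRNAs (adjusted p = 0.381), and SESN1, a sestrin that restrains growth signalling, by −0.01 (adjusted p = 0.976).

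Of the death receptor genes, FAS passed, and the other 3 of 4 did not. FAS encodes the receptor that binds FAS ligand and recruits caspase-8. It read 5.63, 5.54 and 5.16 with the WT1 siRNA, 5.93, 5.70 and 5.44 with scrambled siRNA and 6.08, 6.20 and 5.79 with reagent. Every WT1 siRNA culture lay below every reagent culture, the scrambled culture lay between them in each number, and culture 3 was the lowest of every group.

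FAS fell to 66.9% of the reagent level with the WT1 siRNA (−0.58, SE 0.0728, interval −0.74 to −0.42, adjusted p = 0.00923), by 0.45, 0.65 and 0.63 within the numbers. The difference was −0.25 between the siRNAs (adjusted p = 0.111) and −0.33 between scrambled siRNA and reagent (adjusted p = 0.0712), and neither passed. The 3 other FAS probe sets differed between the WT1 siRNA and reagent by −0.31, −0.25 and −0.24 without passing (adjusted p = 0.185, 0.122 and 0.138). The FAS signal was low, brighter than 27.2% to 46.3% of probe sets. The call was lost without WT1 siRNA replicate 2 (adjusted p = 0.0593), reagent replicate 2 (0.0908), number 2 (0.206) or number 3 (0.069), without the block (1) and with only the groups compared in the fit (0.0602). With the mean of its 4 probe sets the difference was −0.35 (adjusted p = 0.0174).

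A FAS promoter window is shown because FAS is the member that fell with the WT1 siRNA against reagent. This window held matches of both kinds of motif searched. It is the 250 bases before the most downstream of the 3 start sites in the RefSeq table, at chr10:88991181-88991430 on the plus strand of GRCh38.p14. Capitals mark a p53 half-site, GGACAAGCCC from 122 to 113 bases before the start, and GCGGGGGCG from 56 to 48 bases before it.
FAS: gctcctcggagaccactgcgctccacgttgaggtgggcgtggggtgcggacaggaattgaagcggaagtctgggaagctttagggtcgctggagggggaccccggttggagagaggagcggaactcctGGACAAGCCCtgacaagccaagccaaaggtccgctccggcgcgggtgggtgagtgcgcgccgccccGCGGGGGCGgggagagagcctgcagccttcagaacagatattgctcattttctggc
GCGGGGGCG and GCGTGGGCG are letters of the element that the zinc fingers of WT1 and of EGR1 are known to bind.

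Motifs were searched on both strands in windows from 250 bases before to 50 after the start, and 32 of the 36 genes had a window. GCGGGGGCG was found in 5 of 32 genes (BTG2, DDB2, FAS, BCL2L11 and CASP9), or 15.6%, beside 6.14% of 27305 genes in the table. GCGTGGGCG was found in 0 of 32, beside 0.96% of all genes. A p53 half-site was found in 7 of 32 (RPS27L, SESN1, DDB2, FDXR, FAS, CASP8 and CASP9), or 21.9%, beside 8.06% of all genes. No match of one motif overlapped a match of another. The genes without a match included TIGAR, DIABLO and CCNG1, which passed in some comparison, and the genes with a match included SESN1 and CASP9, which passed in none.

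CASP8, the initiator caspase of the death receptors, read 7.63, 8.04 and 7.63 with the WT1 siRNA, 7.28, 7.96 and 7.51 with scrambled siRNA and 7.16, 7.69 and 7.71 with reagent. The WT1 siRNA culture was above the scrambled one in each number and above the reagent one in numbers 1 and 2. CASP8 differed by 0.25 between the WT1 siRNA and reagent (adjusted p = 0.296), and its other probe set by 0.27 (adjusted p = 0.149).

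TNFRSF10B, the TRAIL receptor DR5, read 9.34, 9.77 and 9.56 with the WT1 siRNA, 9.27, 9.61 and 9.45 with scrambled siRNA and 9.25, 9.60 and 9.45 with reagent. The WT1 siRNA culture was the highest in each number by a small margin, 0.11 over scrambled siRNA (adjusted p = 0.369) and 0.13 over reagent (adjusted p = 0.329). CFLAR, which encodes the caspase-8 inhibitor c-FLIP and had 11 probe sets, differed by −0.01, −0.07 and −0.06 in the 3 comparisons.

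None of the 8 measured BCL2 family genes passed in any comparison. Against reagent, 8 of 8 lay above 0 with scrambled siRNA (median 0.15) and 7 of 8 with the WT1 siRNA (median 0.12), where the median over all genes was 0.01 in either case. Of all 11963 genes, 6669 lay above 0 with scrambled siRNA against reagent and 6447 with the WT1 siRNA against reagent. These comparisons share the reagent arrays. Between the siRNAs the median was −0.05, with 2 of 8 above 0, beside 5906 of all 11963 genes. At an unadjusted p under 0.05 limma gave 0 of the 8 between the siRNAs, 3 with the WT1 siRNA against reagent (BAX, BID and MCL1) and 2 with scrambled siRNA against reagent (BID and MCL1). The shares of all genes were 17.7%, 15.9% and 13.1% in the same order.

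BAX, the pore-forming effector of the mitochondrial route, had the widest range over the arrays of the 33 genes, 1.14. It read 6.62, 6.02 and 6.28 with the WT1 siRNA, 6.71, 5.60 and 5.56 with scrambled siRNA and 5.97, 5.58 and 5.89 with reagent. Scrambled culture 1 was the highest of all 9, far above the other scrambled cultures, and every WT1 siRNA culture lay above every reagent culture. The WT1 siRNA level was 0.49 above reagent (SE 0.159, adjusted p = 0.18) and 0.35 above scrambled siRNA (adjusted p = 0.314), and neither passed. Without scrambled replicate 1, BAX was 0.61 higher than with scrambled siRNA (adjusted p = 0.0421) and the adjusted p against reagent was 0.0487. Without all arrays of number 1 the difference between the siRNAs was 0.57 (adjusted p = 0.0365). Under every other setting BAX passed in neither of these comparisons. Without scrambled replicate 3 the difference between the siRNAs was 0.14 (adjusted p = 0.79). The other, dimmer BAX probe set differed by 0.19 between the siRNAs (adjusted p = 0.481) and by 0.28 between the WT1 siRNA and reagent (adjusted p = 0.299).

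PMAIP1 encodes NOXA, a BH3-only protein that binds MCL1. It read 11.12, 11.27 and 10.81 with the WT1 siRNA, 11.21, 11.37 and 10.79 with scrambled siRNA and 11.11, 11.08 and 10.75 with reagent. Culture 3 was the lowest in every group and the groups overlapped, with differences of −0.06, 0.09 and 0.15 in the 3 comparisons. BID, the BH3-only protein that caspase-8 cleaves, read 9.08, 9.21 and 9.21 with the WT1 siRNA, 9.30, 9.26 and 9.28 with scrambled siRNA and 8.95, 8.997 and 9.12 with reagent. The scrambled cultures were above all others, by 0.26 over reagent (SE 0.0623, adjusted p = 0.0971), and the other BID probe set gave 0.25 (adjusted p = 0.125). The WT1 siRNA level of BID differed by 0.15 from reagent (adjusted p = 0.299) and by −0.11 from scrambled siRNA (adjusted p = 0.437).

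MCL1, an anti-apoptotic protein with a short life, read 9.93, 10.12 and 9.65 with the WT1 siRNA, 9.96, 10.15 and 9.73 with scrambled siRNA and 9.66, 9.89 and 9.62 with reagent. The reagent culture was the lowest in each number, and both siRNA groups lay close together. MCL1 differed from reagent by 0.18 with the WT1 siRNA (adjusted p = 0.235) and by 0.23 with scrambled siRNA (adjusted p = 0.171). BCL2L1, which encodes the anti-apoptotic BCL-XL, differed from reagent by 0.21 with either siRNA (adjusted p = 0.364 and 0.436). BAD, BIK and BCL2L11, which encode BH3-only proteins, differed by −0.10, −0.08 and 0.02 between the siRNAs, with adjusted p of 0.677, 0.649 and 0.952. The signal of BIK and BCL2L11 was low, brighter than 36.1% to 42.2% and 25.2% to 30.1% of probe sets.

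**Figure D3:**
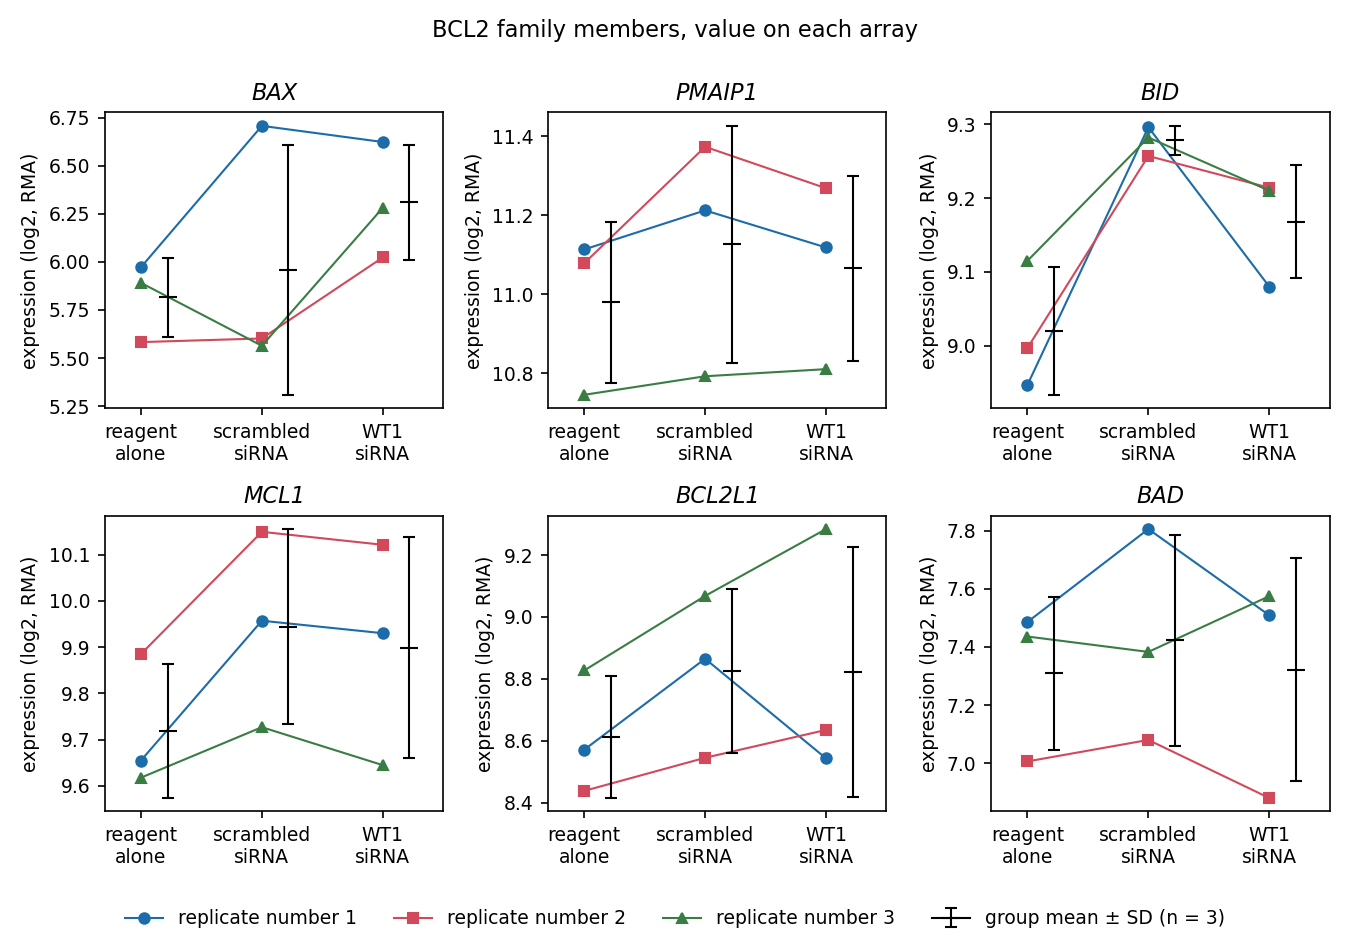
Log2 expression of 6 BCL2 family genes on each array, by group, with arrays of the same replicate number joined and the group mean ± SD (n = 3) beside them. BAX in scrambled culture 1 stands at 6.71, above the other scrambled cultures at 5.60 and 5.56, and the BID values of the scrambled and reagent groups do not overlap.

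Among the 8 genes of the apoptosome, the caspases and their inhibitors, DIABLO passed. DIABLO encodes SMAC, which leaves mitochondria and relieves caspases of the inhibitor of apoptosis proteins. It read 9.35, 9.33 and 9.40 with the WT1 siRNA, 9.74, 9.67 and 9.55 with scrambled siRNA and 9.58, 9.55 and 9.46 with reagent. The WT1 siRNA cultures lay below every culture of both other groups, and the scrambled and reagent groups overlapped.

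DIABLO fell by 0.29 with the WT1 siRNA against scrambled siRNA (SE 0.0642, interval −0.44 to −0.15, 1.22-fold, adjusted p = 0.0421), by 0.39, 0.34 and 0.15 within the numbers. Against reagent the difference was −0.17 (interval −0.31 to −0.03, adjusted p = 0.25), and scrambled siRNA differed from reagent by 0.12 (adjusted p = 0.512). The call held in 1 of 12 settings that left out an array or a number, the one without WT1 siRNA replicate 3 (adjusted p = 0.0267). It was lost without the block (0.656), with only the groups compared in the fit (0.107) and after quantile normalisation (0.0592).

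The other 7 genes did not pass. XIAP, which inhibits caspases directly, differed by no more than 0.01 between groups, and CYCS, which encodes cytochrome c, by no more than 0.03. APAF1, the scaffold of the apoptosome, differed by −0.10, −0.11 and −0.02 in the 3 comparisons. CASP9, the caspase that APAF1 activates, differed by 0.15 between the WT1 siRNA and reagent (adjusted p = 0.482). BIRC2, a ubiquitin ligase of the inhibitor of apoptosis family, differed by −0.14 between the siRNAs (adjusted p = 0.479). The initiator CASP2 and the executioner CASP6 both differed by −0.02 between the siRNAs.

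The other probe sets of the measured genes gave no further call. Of 41 probe sets that did not stand for their gene, 0 passed in limma in any of the 3 comparisons, with 6, 11 and 7 at an unadjusted p under 0.05, and the lowest adjusted p was 0.0937, for a FAS probe set between the siRNAs. Among the probe sets that stood for all genes, 17.7%, 15.9% and 13.1% had an unadjusted p under 0.05. Of the 33 genes, 18 had several probe sets and 15 had 1.

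**Figure D4:**
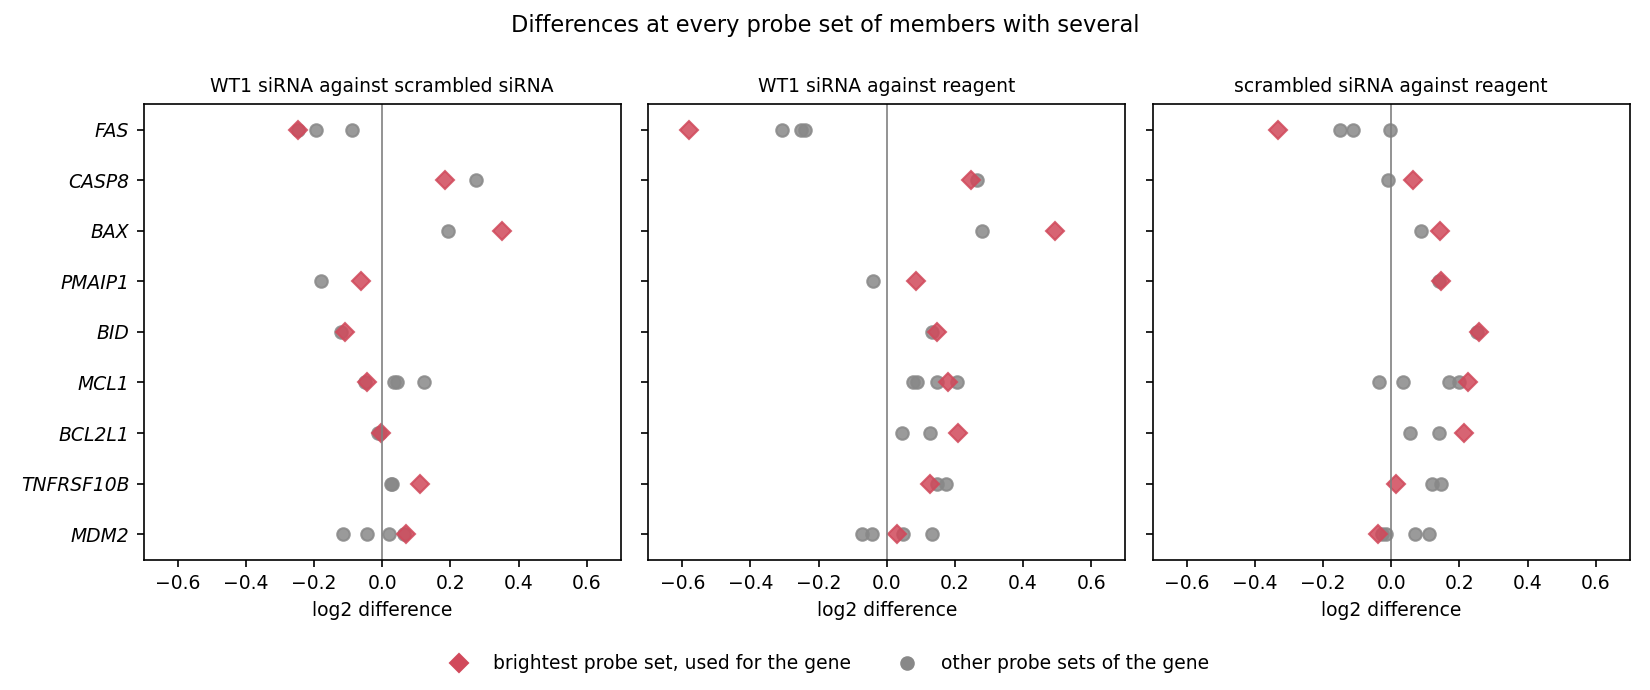
Log2 difference at every probe set of 9 genes with several, in the 3 comparisons, with the probe set that stands for the gene as a diamond and the others as circles. All 4 FAS probe sets lie below 0 between the WT1 siRNA and reagent, and the diamond, at −0.58, lies farthest out.

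The replicate number went with a larger share of the spread than the group for most of these genes. In limma's F-test over the numbers 22 of 33 genes passed, or 66.7%, beside 52.1% of all genes. With all arrays of number 1 or all arrays of number 2 left out, 10 of the 33 passed, beside 24.5% and 31.1% of all genes. The median share of a gene's sum of squares that lay between numbers was 59.9%, beside 60.0% over all genes, and between groups it was 15.2%, beside 13.8%. The number share exceeded the group share in 26 of the 33 genes, or in 81.0% of all genes. The 7 genes with the larger share between groups were TIGAR, RPS27L, PLK3, XPC, FAS, BID and DIABLO.

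XIAP had 95.2% of its sum of squares between numbers (adjusted p = 0.000229), with means of 5.24, 4.95 and 4.55 in numbers 1, 2 and 3. Its numbers did not overlap, although its signal was low, brighter than 13.8% to 30.4% of probe sets. APAF1 had means of 6.44, 7.07 and 6.86 (adjusted p = 0.000578) and BIRC2 of 10.22, 10.81 and 10.26 (adjusted p = 0.000591), both highest in number 2. CCNG1 had means of 9.94, 10.14 and 10.43 (adjusted p = 0.000888), highest in number 3.

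PMAIP1 had means of 11.15, 11.24 and 10.78 (adjusted p = 0.000921), lowest in number 3, and BAD of 7.60, 6.99 and 7.47 (adjusted p = 0.00125), lowest in number 2. So members of one role did not share an order of the numbers. Of the 22 genes that passed, 7 were highest in number 1, 11 in number 2 and 4 in number 3. A sign of RNA quality moved with the numbers: the difference between the 3′ and 5′ control probe sets of ACTB was 0.05 to 0.09 in number 1, 0.55 to 0.68 in number 2 and 0.26 to 0.51 in number 3. Between groups its means were 0.30 with the WT1 siRNA, 0.40 with scrambled siRNA and 0.40 with reagent. Its part in the members' differences was not tested.

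**Figure D5:**
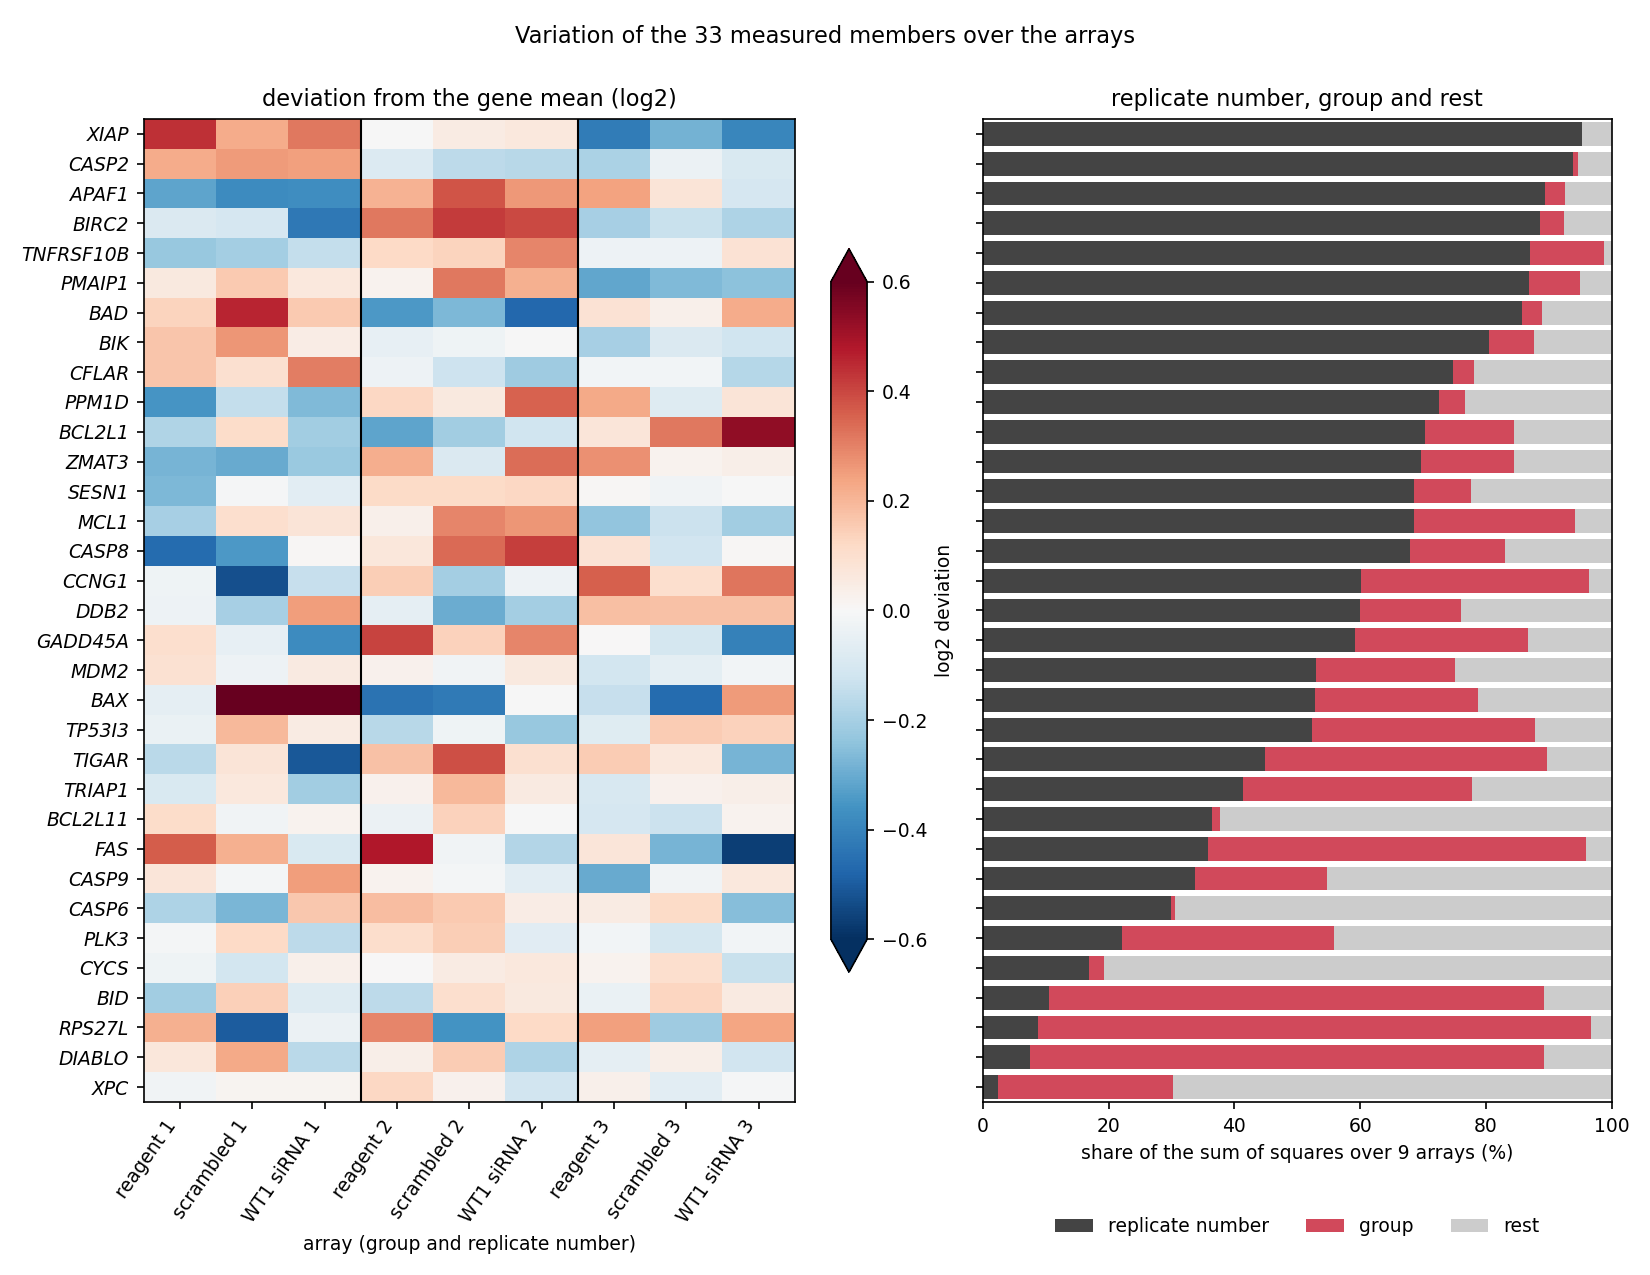
Left, log2 deviation of each of the 33 genes from its mean on the 9 arrays, ordered by replicate number; right, the share of each gene's sum of squares (percent) between numbers, between groups and left over. Genes at the top, such as XIAP at 95.2%, vary with the number, and RPS27L, DIABLO and BID vary with the group.

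The order of the groups within each number is given with no test, counted after other values of these genes had been seen. The scrambled culture was the lowest of its number in 3 of 3 numbers for 4 of the 33 genes (CCNG1, ZMAT3, RPS27L and DDB2), or 12.1%, beside 6.2% of all genes. It was the highest in 3 of 3 numbers for TP53I3, BID, MCL1 and DIABLO, also 12.1%, beside 8.72% of all genes. The reagent culture was the highest for CCNG1, RPS27L, GADD45A and FAS and the lowest for TNFRSF10B, PMAIP1, BID and MCL1, 12.1% in either case, beside 6.58% and 6.39% of all genes. The WT1 siRNA culture was the lowest for TIGAR, FAS and DIABLO, or 9.09%, beside 9.37% of all genes, and the highest for TNFRSF10B alone, or 3.03%, beside 6.7%.

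Other genes of the pathway, from lists of p53 regulators, further p53 targets, further BCL2 family genes and further caspases and death receptors, held 99 measured genes. Between the siRNAs 8 of the 99 passed, or 8.08%, beside 3.7% of all genes, and against reagent 1 passed with either siRNA, or 1.01%, beside 1.4% of all genes with the WT1 siRNA and 1.21% with scrambled siRNA. Of 20 measured regulators of p53, ATR, a kinase of the DNA damage response, fell with the WT1 siRNA against scrambled siRNA (−0.31, adjusted p = 0.0497), and none passed against reagent with either siRNA. The regulators with the smallest p there were BRD7 with the WT1 siRNA (−0.19, adjusted p = 0.191) and the ubiquitin ligase gene RCHY1 with scrambled siRNA (−0.21, adjusted p = 0.248). ATR differed from reagent by −0.19 with the WT1 siRNA (adjusted p = 0.237) and by 0.12 with scrambled siRNA (adjusted p = 0.592).

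Of 35 further p53 targets, 3 rose and 1 fell with the WT1 siRNA against scrambled siRNA, or 11.4% in all, beside 1.39% upward and 2.32% downward over all genes. PTP4A1, a tyrosine phosphatase, rose by 0.56 (adjusted p = 0.00844), DDIT4, an inhibitor of mTORC1 signalling, by 0.54 (adjusted p = 0.0208) and DRAM1, a lysosomal membrane protein of autophagy, by 0.33 (adjusted p = 0.0342). TP53TG1, a non-coding RNA, fell by 0.28 (adjusted p = 0.0457). It differed from reagent by −0.10 with the WT1 siRNA (adjusted p = 0.52) and by 0.18 with scrambled siRNA (adjusted p = 0.265). With scrambled siRNA against reagent, PTP4A1 fell by 0.47 (adjusted p = 0.0289), while DDIT4 and DRAM1 differed by −0.41 (adjusted p = 0.0855) and −0.24 (adjusted p = 0.164). With the WT1 siRNA against reagent these differences were 0.08, 0.13 and 0.09, and 0 of the 35 passed, with PLK2, a stress-induced kinase, at the smallest p (−0.29, adjusted p = 0.129). So PTP4A1, like RPS27L, passed between the siRNAs and between scrambled siRNA and reagent, with the scrambled cultures low, and these comparisons share the scrambled arrays.

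Of 15 further BCL2 family genes, BNIP3L and BNIP3, mitochondrial proteins of mitophagy, rose with the WT1 siRNA against scrambled siRNA, by 0.40 (adjusted p = 0.0117) and 0.42 (adjusted p = 0.0447). BNIP3L also rose against reagent, by 0.37 (adjusted p = 0.0279), where BNIP3 was 0.37 higher without passing (adjusted p = 0.103). The BNIP3L call against reagent was lost with only the groups compared in the fit (0.113) and with the mean of its probe sets (0.0754), and at a probe set without a suffix for shared transcripts the difference was 0.22 (0.326). With scrambled siRNA against reagent none passed, and BCL2L2 had the smallest p (−0.14, adjusted p = 0.384). BNIP3L and BNIP3 differed by −0.03 and −0.05 in that comparison (adjusted p = 0.916 and 0.91). Of 29 further caspase and death receptor genes, TNFRSF1A, the receptor of tumour necrosis factor, rose by 0.26 between the siRNAs (adjusted p = 0.0416). None passed against reagent, where TNFRSF21, death receptor 6, had the smallest p with either siRNA (0.29, adjusted p = 0.0893, and 0.25, adjusted p = 0.158). TNFRSF1A differed from reagent by 0.10 with the WT1 siRNA (adjusted p = 0.446) and by −0.16 with scrambled siRNA (adjusted p = 0.292). Without scrambled replicate 2, none of these 10 calls on other pathway genes held (adjusted p = 0.0527 to 0.232), nor without all arrays of number 2 (0.203 to 0.412) or without the block (0.633 to 1). With the number as a random effect 8 of the 10 were lost (0.0505 to 0.252), and PTP4A1 and TP53TG1 between the siRNAs held. ATR, TP53TG1 and BNIP3 were also lost with the mean of their probe sets (0.0693, 0.0864 and 0.105), ATR at a probe set without a suffix for shared transcripts (0.179), and ATR, DRAM1, TP53TG1 and TNFRSF1A with only the groups compared in the fit (0.066, 0.0882, 0.117 and 0.11). TP53TG1 was lost with trend and robust settings (0.073), and TNFRSF1A with arrays centred on their median (0.0639).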

How the data were processed

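Labelled RNA of 9 cultures was hybridised to Affymetrix arrays. Per the submitters' processing notes, the authors processed the arrays with RMA, and the deposited table holds log2 expression for each probe set. RMA pulls arrays to one distribution, so a shift shared by all genes is not seen. No software version, chip definition or genome build is named in the labels. Groups and replicate numbers come from the sample titles, and the series' design calls the cultures biological triplicates. The main fit takes out the mean level of each replicate number, so its p-values measure only the spread that remains. The full spread between cultures of a group enters only in the fit without the block. For arrays, their number limits the precision.

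Of 22277 probe sets, 62 chip controls were left out and 22215 were tested. Of these, 19064 had exactly 1 gene symbol in the platform annotation, 1043 had several and 2108 had none. limma 3.58.1 in R 4.3.3 (lmFit, contrasts.fit, eBayes) was fitted to all 9 arrays with the group and the replicate number as a fixed block. Tests were two-sided, with Benjamini-Hochberg adjustment across the 22215 probe sets of each comparison and a threshold of 0.05. The script was tested on simulated data. The numbers pair the arrays: deviations from group means correlated at 0.647 to 0.849 over the 9 pairs of the same number in different groups. Other pairs gave −0.611 to −0.03. Centring on group means pulls these below 0 once pairs of the same number are positive, so they are not separate evidence. The labels do not say whether a number stands for a day or a passage.

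Values on every array are given for WT1, for genes that passed in some comparison, for MDM2, FAS, BAX, PMAIP1 and GADD45A, and for up to 6 further genes with the smallest p. From each other pathway list, up to 4 genes that passed are named per comparison, or the gene with the smallest p where none did, and up to 6 genes for the replicate numbers. The genes, the lists and this rule were chosen with earlier results of these data known. Promoters come from RefSeq on GRCh38.p14, and figures were drawn with matplotlib 3.10.9.

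Alternatives were no block, the number as a random effect, only the groups compared, other normalisations, trend and robust settings of eBayes, dim probe sets left out, other choices of probe set, and each array or number left out.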

Additional observations from a re-analysis of the deposited data

How the results depend on the processing

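The calls depended on the replicate block. Without the replicate block 0 genes passed between the siRNAs, 0 with the WT1 siRNA against reagent and 0 with scrambled siRNA against reagent, in place of 3, 1 and 2. With the number as a random effect 1 passed with scrambled siRNA against reagent, RPS27L. With only the groups compared in the fit, 1 passed between the siRNAs and 0 with the WT1 siRNA against reagent. With the dimmest 40% of probe sets left out 0 passed in that comparison, because the FAS probe set was among them, and with trend and robust settings 2 passed, FAS and GADD45A. The trend and robust settings also added CCNG1 between the siRNAs (0.26, adjusted p = 0.0195) and BID with scrambled siRNA against reagent (0.26, adjusted p = 0.0495). Over settings that left out an array or a number, the counts ran from 0 to 2 in each comparison and from 10 to 23 for the 22 genes that differed between numbers. Where the fit itself does not show it, the cause was not tested. Of 21 alternatives a comparison, 11, 12 and 9 left the count within 1.5 times of its value, and so did 16 of 18 for the numbers. No called difference turned its sign under an alternative.

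Over all genes the counts moved too. Between the siRNAs 443 genes passed, and 219 with a random effect, 232 with only the groups compared, 677 with trend and robust settings and 4 without the block. With the WT1 siRNA against reagent 167 passed, and 76, 3, 366 and 0 in the same order. With scrambled siRNA against reagent 145 passed, and 53, 318, 301 and 1. Low signal limits MDM2, FAS, XIAP, BCL2L11, BIK and WT1, whose probe sets were dim on some or all arrays, and 3 cultures a group limit every comparison.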
